A study of Mus musculus with 6 samples.

Results

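The genes described here are 10 regulators and targets of the Hippo-YAP pathway, a set of signaling proteins that controls organ size, and they were picked by symbol from the 54532 genes listed for mouse liver RNA-Seq. All 10 had a row in the table, and all 10 passed the filter on low counts that left 15449 genes tested, *Ankrd1* only through its counts in g*Spns1*-cKO libraries, so the counts over the 10 genes are a description. They comprise the coactivators *Yap1* and *Wwtr1* (TAZ), the DNA-binding partner *Tead1*, the regulators *Lats2*, *Nf2*, *Amotl2* and *Ajuba*, and the targets *Ctgf*, *Cyr61* and *Ankrd1*.

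In the Hippo pathway, the MST kinases (*Stk3* and *Stk4*) activate the LATS kinases, which phosphorylate YAP and TAZ and so hold them in the cytoplasm or mark them for degradation. When the kinases are less active, YAP and TAZ enter the nucleus, bind TEAD proteins on DNA and turn on genes such as *Ctgf*, *Cyr61* and *Ankrd1*. Much of this control acts on proteins and not on mRNA, so the mRNA level of a kinase or of *Yap1* is not a measure of its activity. In the liver, the pathway limits growth and bears on whether cells keep hepatocyte or take on bile duct features.

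RNA was sequenced from whole liver in 3 control and 3 g*Spns1*-cKO libraries, whose labels number the livers and which are taken here as 1 mouse each. The g*Spns1*-cKO mice carried *Spns1* fl/fl alleles, with loxP sites around one exon, and Rosa26Cre-ERT2, and Cre was switched on by tamoxifen given to pups, which deletes *Spns1*, a transporter of lysolipids out of the lysosome, in the whole body. By the study's methods the controls were *Spns1* fl/fl littermates, while the sample labels call them WT. The age at harvest, and whether the controls of this experiment received tamoxifen, are not given in the sources used here. The deletion is not limited to hepatocytes, so a value cannot be tied to loss of *Spns1* in one cell type. All 6 libraries had at least 1731 counts of the Y-linked *Ddx3y* and at most 5 of *Xist*.

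The libraries held between 30350002 and 35295611 counts, and 3 counts, the floor used here, correspond to 0.0763 to 0.119 CPM. CPM, the usual per-depth unit, are here counts over the library size after TMM scaling, a correction for the share that a few very abundant transcripts take. The scaling factors were 0.834 to 0.873 in control and 1.16 to 1.18 in g*Spns1*-cKO libraries, so the scale matters for small differences. The targeted gene *Spns1* had 1008, 1562 and 875 counts in control libraries against 642, 1175 and 698 after deletion (log2 fold change -0.87, SE 0.25, edgeR adjusted p = 0.0300). These counts cover the whole gene and not only the deleted exon. The call was lost with library size alone (adjusted p = 0.213), with upper-quartile scaling (0.0635) and without control replicate 2 or g*Spns1*-cKO replicate 1 or 3 (up to 0.091). Across all genes tested, 21.3% were called higher after deletion and 20.5% lower at an edgeR adjusted p under 0.05, 41.8% in all, and for 54.1% the 3 values of one group lay above all 3 of the other. With library size alone as the scale, 7289 genes were higher and 970 lower, and with upper-quartile scaling 4111 and 2240. Over all genes, the median on the log2 scale was 0.014 with TMM and 0.457 with library size alone. The libraries carried the markers of liver, with *Alb* (albumin) at 69300 CPM in control and 41900 in g*Spns1*-cKO mice.

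TEAD proteins bind DNA at a short core, GGAATG, and the promoters of the genes were searched for it because several of these genes are known YAP targets. RefSeq (GRCm38.p6) promoter windows, 250 bases before to 50 after the start, were at hand for 8 of the 10 genes, 11 windows in all, as some genes have more than one start. The core, on either strand, was found for 7 of the 8 genes and in 8 of the 11 windows, against 14.7% of all 32851 promoter windows of the same length. That share is over windows, so it stands beside the 8 of 11 and not the 7 of 8. The windows of *Wwtr1* overlap and hold the same core, which is counted in each. The starts of *Ankrd1* and *Ajuba* each have 2 cores, which 1.36% of all windows have. The 250 bases before the start of *Ankrd1* (chr19:36119845-36120094, minus strand), *Ajuba* (chr14:54577662-54577911, minus strand), *Cyr61* (chr3:145649986-145650235, minus strand) and *Amotl2* (chr9:102717554-102717803, plus strand) are shown 5′ to 3′ along the gene's own strand, because all 4 hold a core before the start and they include 2 genes that rose, 1 that fell and 1 that did not pass the test. Capitals mark the core, as GGAATG or, where it lies on the other strand, as CATTCC.
Ankrd1: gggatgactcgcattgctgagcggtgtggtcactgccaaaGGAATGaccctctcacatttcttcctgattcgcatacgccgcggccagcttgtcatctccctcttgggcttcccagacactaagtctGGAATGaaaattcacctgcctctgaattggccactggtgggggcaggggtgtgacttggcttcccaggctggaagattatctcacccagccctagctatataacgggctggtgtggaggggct
Ajuba: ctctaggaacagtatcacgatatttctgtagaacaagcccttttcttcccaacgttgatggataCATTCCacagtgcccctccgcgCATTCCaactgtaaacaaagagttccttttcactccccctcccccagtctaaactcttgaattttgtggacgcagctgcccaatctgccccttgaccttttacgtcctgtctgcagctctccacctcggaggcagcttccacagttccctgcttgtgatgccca
Cyr61: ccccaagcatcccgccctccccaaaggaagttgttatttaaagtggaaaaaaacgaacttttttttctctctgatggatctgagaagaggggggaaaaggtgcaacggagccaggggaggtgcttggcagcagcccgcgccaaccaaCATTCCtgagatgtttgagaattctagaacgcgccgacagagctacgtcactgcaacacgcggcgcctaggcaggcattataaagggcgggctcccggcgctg
Amotl2: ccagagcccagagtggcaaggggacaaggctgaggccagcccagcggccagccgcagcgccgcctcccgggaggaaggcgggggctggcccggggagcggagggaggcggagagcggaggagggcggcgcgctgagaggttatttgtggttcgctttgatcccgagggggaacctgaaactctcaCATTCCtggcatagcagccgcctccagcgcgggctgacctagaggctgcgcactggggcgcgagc
The first base of the core lies 210 and 123 bases before the start of *Ankrd1*, 186 and 164 before that of *Ajuba*, 103 before that of *Cyr61* and 65 before that of *Amotl2*. In *Yap1* it lies 141 bases before the start and in *Wwtr1* 136 or 170, depending on which start is used. The match of *Lats2* begins 4 bases after a start, and the windows of *Nf2* held none. A match says that these letters occur in the window, and whether a TEAD protein was bound there was not measured.

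Of the 10 genes, 5 were higher (*Tead1*, *Nf2*, *Ctgf*, *Ajuba* and *Ankrd1*), 1 was lower (*Amotl2*) and 4 did not pass the test (*Yap1*, *Wwtr1*, *Lats2* and *Cyr61*), beside the 41.8% called over all genes. Their median log2 fold change was 0.29. With library size alone as the scale, 8 were higher and none was lower, beside 47.2% higher and 6.28% lower over all genes. The calls of *Tead1*, *Ajuba* and *Ankrd1* were those also made at an adjusted p under 0.01, beside 3890 of the 15449 genes tested. The groups did not overlap for 7 of the 10, with *Yap1* and *Amotl2* lower, beside the 54.1% over all genes. In bulk tissue, fewer cells of a type and less RNA per cell cannot be told apart, so each value is a level per liver RNA.

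**Figure D1:**
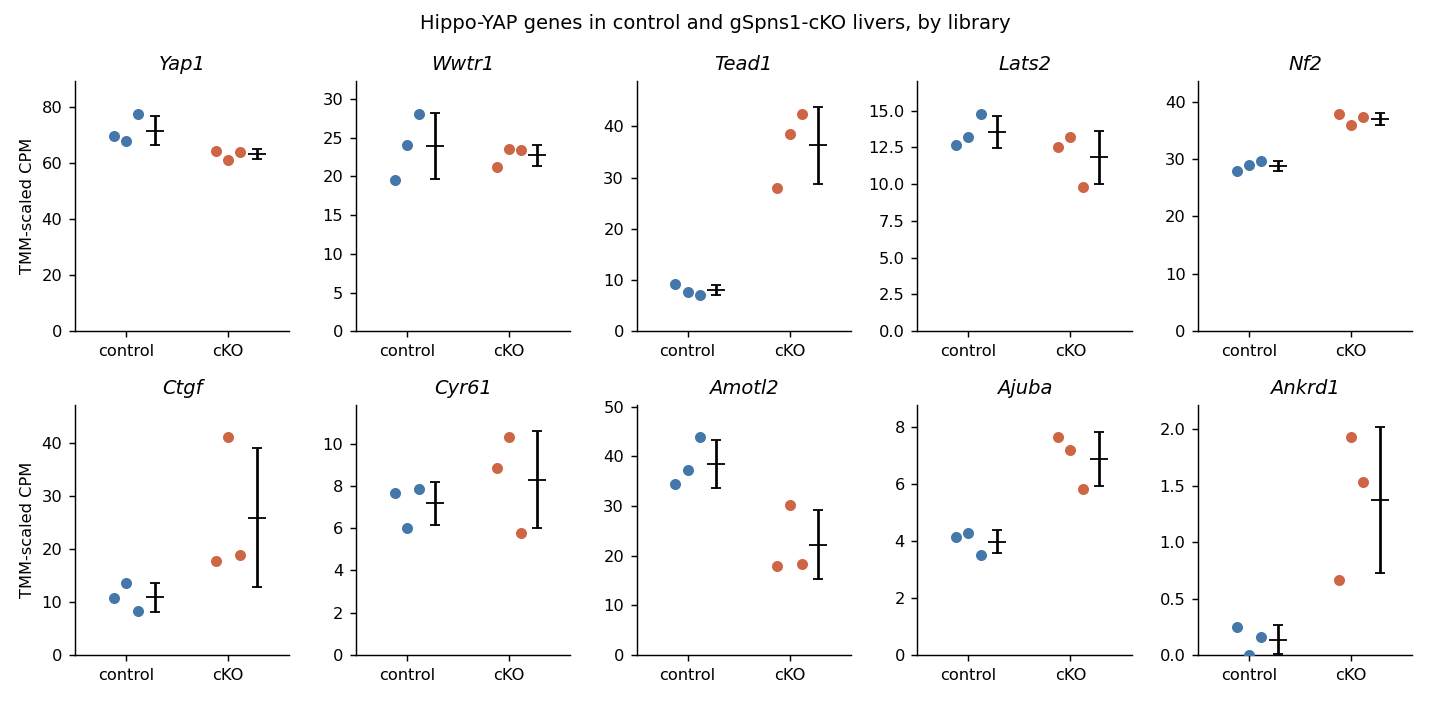
TMM-scaled CPM (y axis, from 0, a separate scale for each gene) of the 10 Hippo-YAP genes in 3 control and 3 g*Spns1*-cKO livers, with each point 1 library and the bar and whisker the mean and SD. *Tead1* separates the groups widely, while *Ctgf* spreads from 17.8 to 41.1 among the g*Spns1*-cKO livers.

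*Yap1* (ENSMUSG00000053110, GRCm38 chr9:7931999-8004596, minus strand) encodes the coactivator that the LATS kinases restrain. It had 69.4, 67.6 and 77.5 CPM in control mice and 64.3, 61.0 and 63.9 in g*Spns1*-cKO mice, so that every g*Spns1*-cKO value was under every control value. The log2 fold change was -0.18, with a 95% interval of -0.40 to 0.04, and edgeR's adjusted p of 0.179 missed the threshold. With library size alone the direction turned, to 0.27 (edgeR adjusted p = 0.0383), so the sign rests on the scale.

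*Wwtr1* (ENSMUSG00000027803, chr3:57455649-57575910, minus strand) encodes TAZ, the paralog of YAP. It was measured at 19.5, 24.1 and 28.1 CPM in control and 21.2, 23.5 and 23.4 in g*Spns1*-cKO mice, which overlap. The log2 fold change of -0.07 (95% interval -0.38 to 0.23) did not pass edgeR's test (adjusted p = 0.703), and its sign turned with library size alone, with upper-quartile scaling and without control replicate 3. Within each library, the ratio of *Wwtr1* to *Yap1* reads per length was 0.646 ± 0.0875 in control and 0.698 ± 0.0541 in g*Spns1*-cKO mice (SD, n = 3 each, two-sided exact permutation p = 0.5). The 2 coactivator mRNAs thus stood in overlapping ratios in the groups, on a measure that needs no scaling between libraries.

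*Tead1* (ENSMUSG00000055320, chr7:112679318-112906807, plus strand) encodes a DNA-binding protein through which YAP and TAZ reach their targets, and it was the most firmly changed of the 10 genes by adjusted p. It had 9.14, 7.73 and 7.15 CPM in control mice against 27.9, 38.6 and 42.5 in g*Spns1*-cKO mice, with the lowest g*Spns1*-cKO liver far above the highest control. The level rose 4.54-fold (log2 fold change 2.18, SE 0.17, edgeR adjusted p = 1.77e-05), and it was called higher in all 15 alternatives tried. The antisense gene that shares its promoter, *2310014F06Rik*, had 3 to 23 counts against 181 to 1671 of *Tead1*.

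Among the genes of the same family, *Tead2* rose from 0.552 to 1.49 CPM (log2 fold change 1.44, SE 0.37, edgeR adjusted p = 0.0107). *Tead3* went from 10.1 to 7.87 CPM (-0.37 on the log2 scale, adjusted p = 0.131) and *Tead4* from 0.312 to 0.795 (1.32, adjusted p = 0.0851), and neither passed edgeR's test. Without g*Spns1*-cKO replicate 3 the adjusted p of *Tead2* was 0.0603. Per length, *Tead1* made up 27.6%, 21.8% and 28.6% of the reads of the 4 *Tead* genes in control mice and 57.8%, 59.1% and 65.6% in g*Spns1*-cKO mice. The share was 26% ± 3.67 against 60.8% ± 4.20 (SD, n = 3 each), and the two-sided exact permutation p was 0.1, the smallest that 3 against 3 mice allow. Every g*Spns1*-cKO share was thus above every control share.

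**Figure D2:**
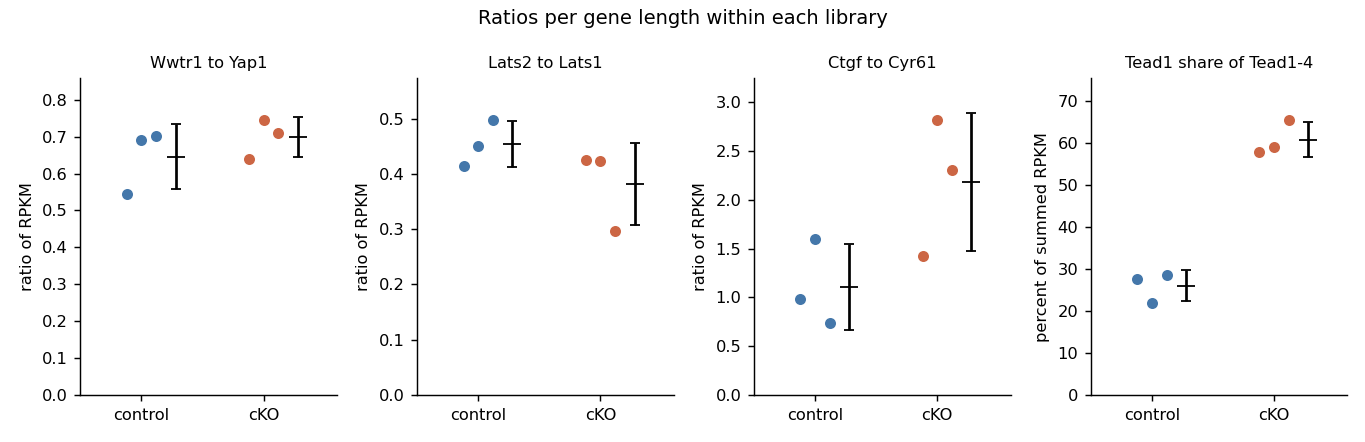
Ratios within each library, per gene length (y axis, from 0; the last panel in percent), of *Wwtr1* to *Yap1*, *Lats2* to *Lats1*, *Ctgf* to *Cyr61* and the share of *Tead1* among the 4 *Tead* genes, with each point 1 library and the bar and whisker the mean and SD. The *Tead1* share is 26% in control and 60.8% in g*Spns1*-cKO mice with no overlap, and the other 3 ratios overlap.

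*Nf2* (ENSMUSG00000009073, chr11:4765845-4849536, minus strand) encodes Merlin, a scaffold that recruits LATS to the membrane and is known as a tumor suppressor. It was steady within groups, at 27.9, 29.0 and 29.6 CPM in control and 37.9, 35.9 and 37.3 in g*Spns1*-cKO mice, which do not overlap. The gene rose 1.28-fold (log2 fold change 0.36, SE 0.10, edgeR adjusted p = 0.0129), and without g*Spns1*-cKO replicate 3 the adjusted p was 0.055.

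*Lats2* (ENSMUSG00000021959, chr14:57689662-57758388, minus strand) encodes one of the 2 kinases that phosphorylate YAP, and it is itself a YAP target. Its levels, 12.7, 13.2 and 14.8 CPM in control and 12.5, 13.2 and 9.79 in g*Spns1*-cKO mice, overlapped. The log2 fold change was -0.20 (95% interval -0.52 to 0.13, edgeR adjusted p = 0.306), and with library size alone it was 0.25. The ratio of *Lats2* to *Lats1* per length was 0.454 ± 0.0415 in control and 0.382 ± 0.0737 in g*Spns1*-cKO mice (SD, n = 3 each, two-sided exact permutation p = 0.3).

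*Amotl2* (ENSMUSG00000032531, chr9:102716672-102733418, plus strand) encodes an angiomotin-like protein that binds YAP and keeps it at junctions, and it is also induced by YAP. It fell 1.73-fold, from 34.4, 37.2 and 43.8 CPM in control to 18.0, 30.2 and 18.4 in g*Spns1*-cKO mice, with g*Spns1*-cKO replicate 2 closest to the controls but still below them. The log2 fold change was -0.79 (SE 0.21, edgeR adjusted p = 0.0154). It was lost with library size alone (-0.34, adjusted p = 0.185), without control replicate 3 (adjusted p = 0.0507) and without g*Spns1*-cKO replicate 3 (adjusted p = 0.0504), keeping its sign.

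*Ajuba* (ENSMUSG00000022178, chr14:54567472-54577558, minus strand) encodes a LIM-domain protein that holds back LATS at junctions. It was measured at 4.13, 4.29 and 3.52 CPM in control mice and 7.64, 7.19 and 5.83 in g*Spns1*-cKO mice, without overlap. The rise was 1.73-fold (log2 fold change 0.79, SE 0.18, edgeR adjusted p = 0.00664) and was called in all 15 alternatives.

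*Ctgf* (CCN2, ENSMUSG00000019997, chr10:24595442-24598683, plus strand) encodes a secreted matricellular protein and is a widely used readout of YAP activity. The control livers had 10.7, 13.6 and 8.26 CPM and the g*Spns1*-cKO livers 17.8, 41.1 and 18.9, so the groups did not overlap and g*Spns1*-cKO replicate 2 stood far above the other two. The mean rose 2.38-fold (log2 fold change 1.25, SE 0.39), and the edgeR adjusted p of 0.0492 lies just under the threshold. Of the 15 alternatives, 7 took the call away, among them leaving out any 1 control library (adjusted p 0.0733 to 0.138), leaving out g*Spns1*-cKO replicate 3 (0.0569) and testing protein-coding genes only (0.0511). Without g*Spns1*-cKO replicate 2 the log2 fold change was 0.75 and the adjusted p 0.0122, so the size of the change rests on that library, while the call was still made.

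*Cyr61* (CCN1, ENSMUSG00000028195, chr3:145646976-145649981, minus strand), a secreted protein of the same family and also a widely used readout, had 7.68, 6.01 and 7.86 CPM in control and 8.84, 10.3 and 5.77 in g*Spns1*-cKO mice. The ranges overlap, and the log2 fold change of 0.21 (95% interval -0.27 to 0.69) did not pass edgeR's test (adjusted p = 0.469), though with library size alone it did (0.66, adjusted p = 0.0272). The ratio of *Ctgf* to *Cyr61* per length was 0.983, 1.6 and 0.741 in control and 1.42, 2.82 and 2.30 in g*Spns1*-cKO mice, which overlap (two-sided exact permutation p = 0.2). Whether the 2 targets differ in response was therefore not resolved by 3 mice per group.

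*Ankrd1* (ENSMUSG00000024803, chr19:36111965-36119844, minus strand) encodes an ankyrin repeat protein best known from heart and muscle and as a YAP and TEAD target. It was close to the floor in control mice, with 7, 0 and 4 counts, and had 24, 74 and 60 in g*Spns1*-cKO mice, with no overlap. In CPM, that is 0.249, 0 and 0.158 against 0.667, 1.93 and 1.53. The fitted fold change was 10.2 (log2 fold change 3.35, SE 0.73, edgeR adjusted p = 0.00541), with a wide 95% interval of 1.71 to 4.98 on the log2 scale, and it rests on few control counts. It was called in all 14 alternatives in which it could be tested, with a log2 fold change of 4.17 without control replicate 1 and 2.72 without control replicate 2. *Ankrd1* passed the filter on low counts only through the g*Spns1*-cKO libraries, so it had to differ. Its test and these calls are therefore a description and no independent support. Of 8 striated muscle markers, *Mylpf* had 25, 13 and 18 counts in control and 9, 17 and 17 in g*Spns1*-cKO mice and was the 1 that could be tested, *Actc1* had 3 to 7, and the other 6 had at most 5 in any library, with *Tnnc2* at 0 in every one. The control counts of *Ankrd1* itself lie in this range.

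**Figure D3:**
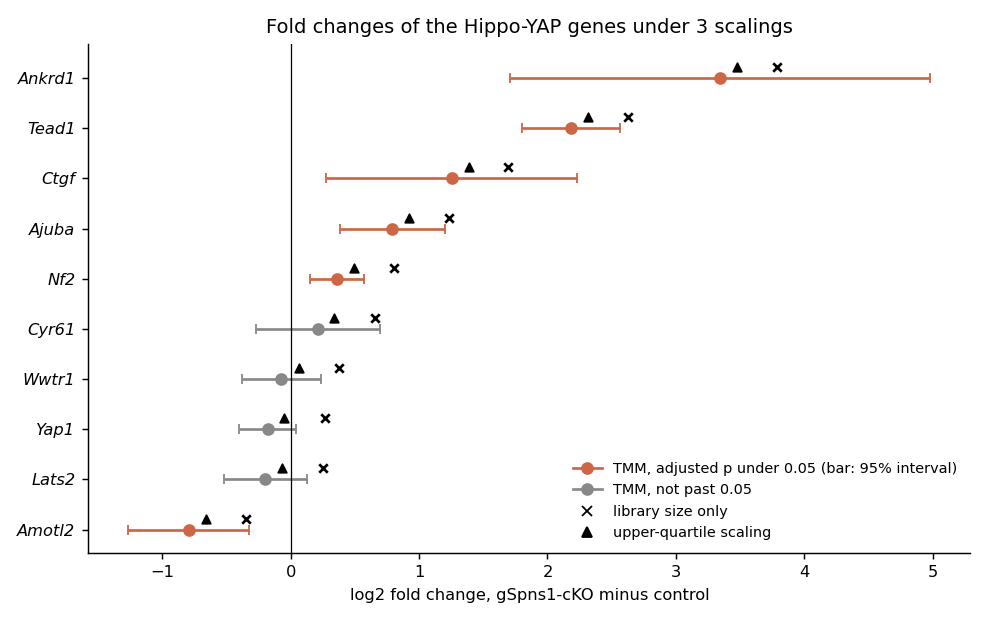
Log2 fold change of each of the 10 Hippo-YAP genes (x axis, g*Spns1*-cKO minus control) on the TMM scale with its 95% interval from edgeR (filled where the adjusted p was under 0.05, gray otherwise), with triangles for upper-quartile scaling and crosses for library size alone. *Ankrd1* has the largest and most uncertain value (3.35, interval 1.71 to 4.98), and *Yap1*, *Wwtr1*, *Lats2* and *Cyr61* have intervals that include 0.

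To compare levels between genes, CPM was divided by gene length in kb, giving RPKM. In control livers the order was *Yap1* (7.72 RPKM), *Amotl2* (6.11), *Wwtr1* (5.0), *Nf2* (4.23), *Ctgf* (3.79), *Cyr61* (3.56), *Lats2* (1.95), *Ajuba* (1.09), *Tead1* (0.590) and *Ankrd1* (0.0769). The ranges of the neighbours from *Amotl2* to *Cyr61* overlapped, so their order is not settled. In g*Spns1*-cKO livers *Ctgf* (9.06 RPKM) and *Yap1* (6.81) came first, with overlapping ranges, followed by *Nf2* (5.42), *Wwtr1* (4.75), *Cyr61* (4.11), *Amotl2* (3.53), *Tead1* (2.68), *Ajuba* (1.89), *Lats2* (1.70) and *Ankrd1* (0.779). The ranges of neighbours from *Wwtr1* to *Lats2* overlapped there, so their places are not settled either. In g*Spns1*-cKO livers, replicate 2 had the highest value of its group for *Ctgf*, *Cyr61*, *Amotl2*, *Ankrd1*, *Wwtr1* and *Lats2*, by a small margin for the last 2. It also had the most *Spns1*, 30.6 CPM against 17.8 in each of the other g*Spns1*-cKO livers and 34.6 to 50.7 in control. A link between *Spns1* and the other values was not tested.

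Of the pathway lists, the kinase cassette was nearest to the background in its median. Of 25 genes for the MST and LATS kinases, their cofactors and the STRIPAK complex, which opposes the MST kinases, 7 were higher and 0 lower. Their median log2 fold change was 0.10, and over all genes 21.3% were called higher and 20.5% lower. With library size alone, 20 were higher, beside 47.2% over all genes, and with any 1 library left out 4 to 6. *Stk3* (MST2) had 9.04 CPM in control and 8.75 in g*Spns1*-cKO mice (adjusted p = 0.855), *Stk4* (MST1) 18.6 and 19.9 (adjusted p = 0.527), and *Lats1* 31.3 and 32.6 (adjusted p = 0.651), none of which passed edgeR's test. Among those called was *Map4k4*, a kinase that acts on LATS beside the MST kinases, from 8.24 to 17.6 CPM (log2 fold change 1.09, SE 0.15, edgeR adjusted p = 0.000343). *Frmd6*, an upstream activator, went from 4.95 to 9.77 CPM (0.98, SE 0.17, adjusted p = 0.00135) and *Map4k3* from 22.9 to 32.7 CPM (0.51, SE 0.12, adjusted p = 0.00779). *Rassf1* went from 2.67 to 4.46 CPM (0.74, SE 0.25, adjusted p = 0.034). Its call held only without g*Spns1*-cKO replicate 1 among the 6 fits that left out a library (up to adjusted p = 0.124). The rest of the 7 were *Mob1a* (0.28, adjusted p = 0.0483) and the STRIPAK genes *Strn3* (0.50, adjusted p = 0.00648) and *Slmap* (0.40, adjusted p = 0.0313). The call of *Strn3* held in all 6 such fits, that of *Slmap* only without g*Spns1*-cKO replicate 1 and that of *Mob1a* in none.

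Regulators at cell junctions and of polarity were called in both directions. Of 16 such genes, 9 were higher and 3 lower, with a median of 0.56, beside 21.3% higher and 20.5% lower over all genes, while with library size alone 13 were higher and 0 lower, beside 47.2% and 6.28%. *Cdh1*, E-cadherin, had the largest rise of the list, from 660, 752 and 523 counts in control to 4032, 3021 and 4322 (log2 fold change 2.13, SE 0.15, edgeR adjusted p = 8.75e-06). *Amot*, the angiomotin gene, rose from 5.78 to 15.2 CPM (1.39, adjusted p = 0.000107). Its relative *Amotl1* also rose, from 6.94 to 13.9 CPM (1.00, adjusted p = 0.000513), while *Amotl2* fell. *Dchs1*, a giant cadherin, and *Wtip*, a relative of *Ajuba*, rose by 1.31 (adjusted p = 0.000715) and 1.02 (adjusted p = 0.006) on the log2 scale. *Mpp5* (PALS1, -0.55, adjusted p = 0.00951), *Crb3* (-0.53, adjusted p = 0.015) and *Llgl2* (-0.48, adjusted p = 0.0114), all polarity proteins of epithelia, fell, but with library size alone they were at -0.11, -0.09 and -0.04 and not called. The call of *Crb3* was also lost with upper-quartile scaling (adjusted p = 0.0557) and without control replicate 2 or g*Spns1*-cKO replicate 3 (adjusted p up to 0.0689), and that of *Llgl2* without g*Spns1*-cKO replicate 3 (0.0581).

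Other partners of TEAD also differed. *Vgll3*, a cofactor that binds TEAD in place of YAP, had 10, 12 and 3 counts in control and 45, 51 and 46 in g*Spns1*-cKO mice (log2 fold change 2.08, SE 0.44, edgeR adjusted p = 0.0039), and it passed the filter on low counts through its higher g*Spns1*-cKO values, as 2 of the 3 control libraries reached the cutoff. *Vgll4*, which competes with YAP for TEAD, fell from 28.6 to 18.5 CPM (-0.63, SE 0.14, adjusted p = 0.00451), a call lost with library size alone (-0.19, adjusted p = 0.271). *Vgll1* and *Vgll2* had 0 counts in every library.

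**Figure D4:**
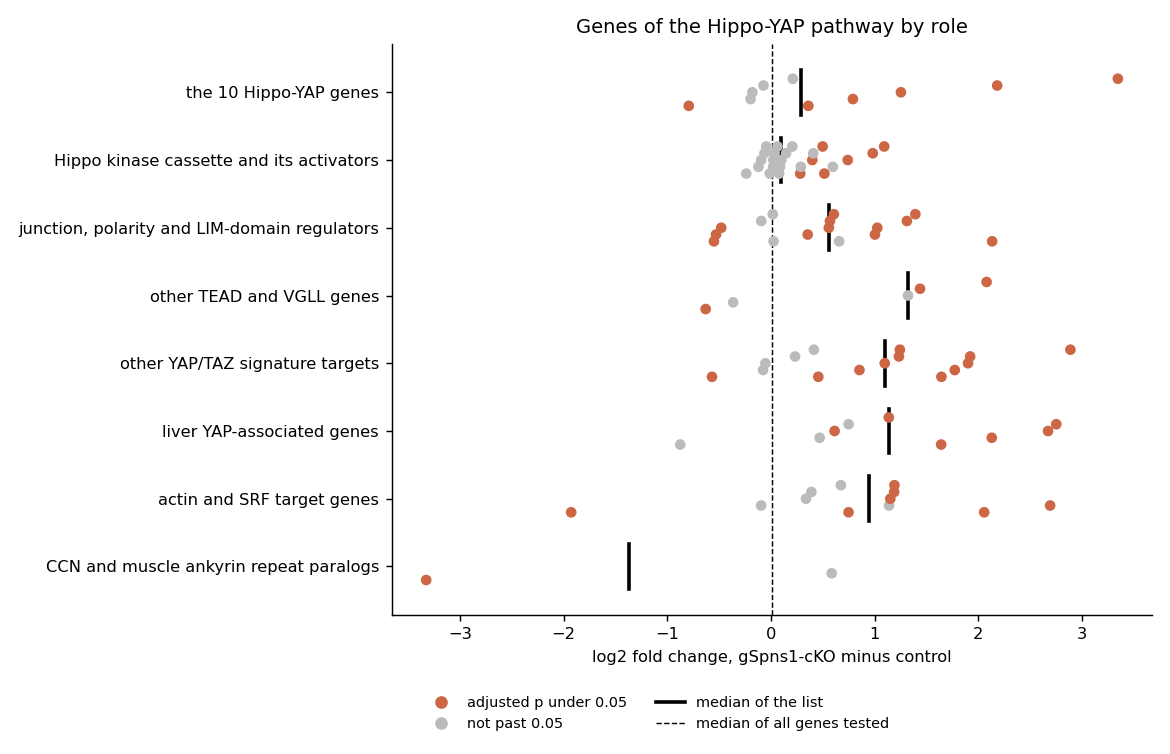
Log2 fold change (x axis, g*Spns1*-cKO minus control) of every tested gene in 8 lists of Hippo-YAP genes and related genes, with each point 1 gene, filled by whether its edgeR adjusted p was under 0.05, with a bar at the median of each list and a dashed line at the median of all genes tested. The signature, liver and actin lists lie mostly to the right, with medians of 1.10, 1.14 and 0.94, while the kinase list centers near 0.10. The other TEAD and VGLL genes, 5 of them tested, have a median of 1.32 with values on both sides of 0.

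Genes of a YAP and TAZ target signature from other tissues, without the targets above, were mostly higher. Of 17 such genes 15 were tested, and 10 were higher and 1 was lower, beside 21.3% higher and 20.5% lower over all genes. The median log2 fold change was 1.10. For *Tgfb2*, among the 10, 2 of the 3 control libraries reached the cutoff of the filter on low counts. Its call was lost without control replicate 1 or 3 or g*Spns1*-cKO replicate 3 (edgeR adjusted p up to 0.133). *Myof*, a membrane repair protein, rose from 1.64 to 12.2 CPM (log2 fold change 2.89, SE 0.24, edgeR adjusted p = 2.18e-05). *Nt5e* (CD73) rose by 1.92 on the log2 scale (adjusted p = 0.000472), *Arhgef17* by 1.90 (adjusted p = 0.000312) and the receptor kinase *Axl* by 1.77 (adjusted p = 1.06e-05). *Dock5* was lower (-0.57, adjusted p = 0.00493), though with library size alone it was at -0.12 (adjusted p = 0.418).

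Genes that follow YAP in liver, among them bile duct and fibrosis genes, gave 6 higher and 0 lower of 9 tested, with a median of 1.14, beside 21.3% higher and 20.5% lower over all genes. *Ccnd1*, cyclin D1, rose from 10.9 to 73.5 CPM (log2 fold change 2.75, SE 0.32, edgeR adjusted p = 0.00119), *Thbs1*, thrombospondin 1, from 0.635 to 4.05 CPM (2.67, SE 0.30, adjusted p = 0.000112), *Spp1*, osteopontin, from 44.6 to 195 CPM (2.13, SE 0.22, adjusted p = 0.000209) and *Sox9*, a bile duct transcription factor, from 3.77 to 11.7 CPM (1.64, SE 0.24, adjusted p = 0.000615). Of 12 tested genes for actin and targets of the actin-sensing factor SRF, 6 were higher and 1 lower, with a median of 0.94, against the same shares over all genes. *Flna* (2.06, adjusted p = 1.48e-05), *Cnn2* (1.19, adjusted p = 0.000276) and *Actg1* (1.19, adjusted p = 0.00102) rose, and *Tpm2* fell by 1.93 on the log2 scale (adjusted p = 0.00107). *Fhl2*, with 12, 6 and 3 counts in control and 68, 64 and 52 in g*Spns1*-cKO mice, was also called (2.69, adjusted p = 0.00121), but 1 of the 3 control libraries reached the cutoff of the filter, so it was tested through the group where it is high. Of the relatives of *Ctgf* and *Ankrd1*, 2 of 6 were tested. *Ankrd2*, with 47, 57 and 41 counts in control and 8, 5 and 6 in g*Spns1*-cKO mice, was lower (log2 fold change -3.33, SE 0.39, edgeR adjusted p = 0.000141). It passed the filter on low counts only through the control libraries, so it had to differ, and it was not tested where at least 10 counts in every library were asked for.

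Markers of other liver cells moved with these genes, and their counts stand beside 21.3% higher and 20.5% lower over all genes. Of cholangiocyte markers, 7 of 9 tested were higher, with a summed level of 53.2 to 58.6 CPM in control and 89.9 to 108 in g*Spns1*-cKO mice. Their defining markers *Cftr* and *Sctr* had at most 5 and 1 counts in control and 17 to 26 and 6 to 26 in g*Spns1*-cKO mice. *Cftr*, one of the 7, passed the filter on low counts only through the g*Spns1*-cKO libraries, so it had to differ, and *Sctr* was not tested. Of stellate cell markers, 9 of 10 were higher (237 to 284 against 410 to 419 CPM), of endothelial markers 6 of 10 (247 to 268 against 331 to 382), of macrophage markers 10 of 10 (189 to 307 against 740 to 1110), of mesothelial markers 2 of 7 (6.01 to 20.5 against 21.8 to 28.3), a share near that over all genes, and of portal fibroblast and smooth muscle markers 5 of 7 (58.7 to 115 against 120 to 142). None of these markers was called lower. Most of the portal fibroblast and smooth muscle sum is *Gas6*, at 78.4 CPM in control and 105 in g*Spns1*-cKO mice. *Gas6* overlapped between the groups and was not called (log2 fold change 0.41, edgeR adjusted p = 0.218), so that sum says little about the 5 called. Of 9 hepatocyte markers, 4 were lower and 0 higher, and their sum went from 104000 to 118000 CPM in control to 63500 to 73300 in g*Spns1*-cKO mice. Most of that sum is *Alb*. With library size alone, *Pck1*, a gluconeogenic enzyme, was the only one of those 4 still called lower (edgeR adjusted p = 0.0159). On that scale *Cps1*, another marker of the list, was called higher (log2 fold change 0.80, edgeR adjusted p = 0.00208). Striated muscle markers had sums of 0.52 to 1.46 in control and 0.361 to 0.611 in g*Spns1*-cKO mice. *Ctgf*, *Axl* and *Thbs1* are known to be expressed in non-parenchymal liver cells too, and the part of these marker differences in the values above was not tested.

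**Figure D5:**
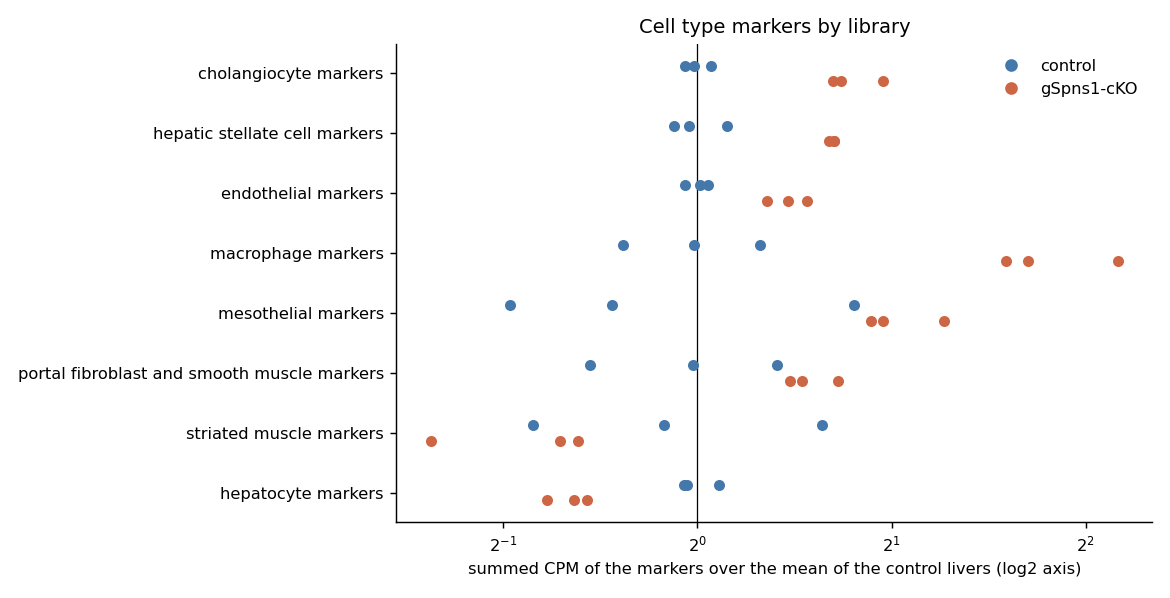
Summed CPM of each marker list relative to the mean of the control livers (x axis, log2 scale) in 3 control and 3 g*Spns1*-cKO livers, with each point 1 library and a line at the control mean. Macrophage, stellate cell, cholangiocyte and endothelial sums are higher in every g*Spns1*-cKO liver than in any control liver. So are the mesothelial and the portal fibroblast and smooth muscle sums, by a small margin. Hepatocyte sums are lower, and striated muscle sums overlap.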

How the data were processed

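RNA-Seq of liver was analysed for 3 control and 3 g*Spns1*-cKO mice, grouped by the sample titles. The authors deposited raw counts, 1 whole number per gene and library, and the submitters' processing notes name fastp, HISAT2 2.0.5, featureCounts 1.5.0-p3 and mm10. Whether counting used strand is not given in the sources used here. The FPKM values that the authors deposited, and the columns of the authors' own comparison (group means, fold changes, p-values), were not used. The gene lengths were used for RPKM and for ratios per length.

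The counts were tested with edgeR 4.0.16 (R 4.3.3). Low genes were removed by filterByExpr, which left 15449, the libraries were scaled by TMM, and the groups were compared by the quasi-likelihood test (robust, no covariate) with Benjamini-Hochberg adjustment over all genes tested and a threshold of 0.05. Every edgeR p-value in the report is such a value. Replicates of a group differed by more than sampling noise and were counted separately, but the labels only number the livers, so p-values measure the spread between these samples. The 95% intervals are from edgeR's fit over libraries, and the floor of 3 counts covers counting error only, because reads without molecular identifiers are not independent molecules. Alternatives were DESeq2 1.42.0, limma-voom (limma 3.58.1), library size alone, upper-quartile scaling, 2 other filters, protein-coding genes only, a threshold of 0.01, a replicate block and leaving out each library.

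The 10 genes, the other lists and their tests were chosen with earlier results of these data known, so no count over a list is independent evidence. Of the other lists, the genes named are those called without overlap between the groups, up to the 4 with the largest change in each direction. *Stk3*, *Stk4*, *Lats1* and the *Tead* genes are named beside them. The rest of the called kinase genes, *Amotl1*, *Tgfb2*, the single markers and the untested genes named were chosen after their values were seen. *Tf*, on the list of hepatocyte markers, was not analysed here. Promoter sequences are from RefSeq (GRCm38.p6), and protein sequences were not used.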

Additional observations from a re-analysis of the deposited data

How the results depend on the processing

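The calls of *Tead1*, *Ajuba* and *Ankrd1* were made in every alternative in which they were tested (15, 15 and 14). Those of *Ankrd1* add no support, because it passed the filter on low counts only through the group where it is high. With library size alone, *Yap1*, *Wwtr1* and *Lats2* turned to log2 fold changes of 0.27, 0.37 and 0.25, 20 genes of the kinase list were called and 2 of the relatives of *Ctgf* and *Ankrd1*, because this scale moves the median of all genes to 0.457. With upper-quartile scaling *Wwtr1* was at 0.0607, and without one library it ranged from -0.21 to 0.047 (without control replicate 3). At an adjusted p under 0.01, 3890 genes were called in all, 3 of the 10 genes and 4 of the kinase list. Leaving out one library gave 4490 to 6429 genes in all, 3 to 6 of the 10 genes (3 without g*Spns1*-cKO replicate 3), 4 to 6 of the kinase list and 1 to 3 of the relatives, of which 2 were called with at least 1 count in any library and 0 with at least 10 in every library. Where no cause is given, the cause was not tested. Control and g*Spns1*-cKO libraries share only replicate numbers: deviations of libraries with the same number correlated at 0.037, 0.033 and -0.028, and not every library correlated best with its own number. With the replicate block, 6100 genes were called, 5829 of them also without it, and the same 6 of the 10 genes. Genes with few counts, such as *Ankrd1*, are limited by depth.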

Other observations

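Some listed genes had too few counts to be tested, and their counts are given without a test. *Fjx1*, a YAP signature target, had 0, 1 and 0 counts in control mice and 9, 22 and 16 after deletion. *Areg*, amphiregulin, a growth factor that YAP induces, had 0 counts in all control mice and 4, 5 and 6 after deletion. *Ankrd23*, a relative of *Ankrd1*, had 3, 5 and 4 against 9, 28 and 12. *Wisp3*, a relative of *Ctgf*, went the other way, with 25, 19 and 5 against 1, 1 and 4. *Foxf2*, another signature gene, had 0 counts in every library.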
